A study of Mus musculus with 12 samples.

Results

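The genes described here are the protein-coding genes of mouse chromosome 16 that had a mean of at least 1 CPM (a gene's counts per total, scaled so that libraries can be compared) over the 12 libraries of the study, taken in the order of their start positions in mm10. Of 646 protein-coding genes of the chromosome in the count table, 410 reached that mean. The other 236 did not, and 68 of these had 0 counts in every library. All 410 members had enough counts to be tested. Just outside the minimum were Tbx1 at 0.937, P2rx6 at 0.987 and Eaf2 at 0.99 CPM, and just inside were Gm5483 at 1.00, Hunk at 1.03 and Cldn1 at 1.08 CPM. The chromosome was chosen because its genes had the highest median change between the groups compared below, so the median, the counts and the position along the chromosome are given as descriptions, with no test of the chromosome as a whole.

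The samples were 12 tumours grown from CR705 cells, a pancreatic cancer line of the mouse, each read as bulk poly-A selected RNA. Of these, 6 were labelled WT and 6 were labelled AHRKO, for tumours of cells in which the aryl hydrocarbon receptor gene Ahr was knocked out. No compound, age or host strain is given for any sample. The labels do not say whether the replicates were separate animals, nor whether the knockout cells were a single clone or a pool, so each p below measures the spread between these samples only.

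Library totals ran from 14772343 to 35881469 counts. Ahr RNA, a check of the labels, was at 101 to 125 CPM in WT and at 62.5 to 143 CPM in AHRKO (log2 fold change -0.13 ± 0.17 SE, adjusted p = 0.606 by edgeR's quasi-likelihood test). Ahr RNA therefore did not separate the groups, and AHRKO stands below for the libraries labelled so. The 11 epithelial cancer markers were present in every library, with a summed level of 4287 to 5979 CPM in WT and 868 to 5353 CPM in AHRKO, and 0 of them rose and 1 fell. Of 14 pan-leukocyte markers 13 rose and 0 fell, from sums of 357 to 697 CPM in WT to 595 to 3385 CPM in AHRKO. AHRKO replicate 1 stood apart, with the highest leukocyte, fibroblast and endothelial scores (mean log2 CPM of the markers 7.45, 10.2 and 7.42) and the lowest epithelial score (4.24) of all 12 libraries. None of 10 fibroblast, 8 endothelial or 5 erythrocyte markers passed the test. Of 5 skeletal muscle markers 2 could be tested and 1 rose, with sums of 1.85 to 7.95 CPM in WT and 1.88 to 264.7 CPM in AHRKO, where replicate 2 had the highest score; the part of muscle RNA in the results was not tested. Of 8 acinar markers 1 had enough counts, and Cela2a, Amy2a2 and Ptf1a were at 0 in all libraries.

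Chromosome 16 carries genes of many unrelated roles. Its distal end holds the counterparts of many genes of the human chromosome that is present in an extra copy in Down syndrome, among them receptors for interferons. Its proximal part holds the counterpart of the region deleted in DiGeorge syndrome, and between them lie genes for inhibitory receptors of lymphocytes, resistin-like proteins and interferon-induced enzymes. AHR itself is a transcription factor activated by ligands, which binds DNA with its partner ARNT at sites built around the letters GCGTG.

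The sequences of 4 start regions are shown because they belong to genes whose values are described below. They come from the RefSeq promoter table of build GRCm38.p6, trimmed to bases that no annotated exon covers, and are written 5′ to 3′ on the strand named. Socs1 rose strongly; the capitals in its upstream bases (chr16:10785537-10785786, minus strand) mark 2 overlapping matches to GAAA, any 2 bases and GAAA again, the core of the interferon-stimulated response element. Nubp1 was higher in every AHRKO library than in every WT library; the capitals in its upstream bases (chr16:10411688-10411937, plus strand) mark GCGTG, or CACGC where the match is on the other strand. Glyr1 and Ubn1 start head to head, and Ubn1 rose slightly while Glyr1 was not called; the capitals in the bases between their starts (chr16:5049911-5050056, plus strand) mark CACGTG, an E-box. Tango2 and Arvcf also start head to head, yet Arvcf fell and Tango2 did not; the bases between their starts (chr16:18348104-18348181, plus strand) hold no match to CACGTG.
Socs1: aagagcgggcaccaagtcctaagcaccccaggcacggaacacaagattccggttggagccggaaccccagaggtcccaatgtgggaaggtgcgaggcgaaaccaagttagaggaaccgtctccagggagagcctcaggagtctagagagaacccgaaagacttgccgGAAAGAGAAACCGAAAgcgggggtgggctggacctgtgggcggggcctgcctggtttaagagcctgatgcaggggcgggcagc
Nubp1: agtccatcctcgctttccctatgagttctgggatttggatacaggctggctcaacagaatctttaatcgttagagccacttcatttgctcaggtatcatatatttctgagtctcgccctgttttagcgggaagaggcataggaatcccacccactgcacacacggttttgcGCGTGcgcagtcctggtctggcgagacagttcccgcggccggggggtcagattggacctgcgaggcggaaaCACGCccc
Glyr1 and Ubn1: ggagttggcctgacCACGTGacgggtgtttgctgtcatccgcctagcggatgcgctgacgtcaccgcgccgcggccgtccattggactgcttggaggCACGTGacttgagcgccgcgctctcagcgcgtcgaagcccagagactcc
Tango2 and Arvcf: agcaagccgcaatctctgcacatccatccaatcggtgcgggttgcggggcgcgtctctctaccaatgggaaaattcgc

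Genes of chromosome 16 were mostly a little higher in AHRKO. The fitted log2 fold change, AHRKO over WT, was above 0 in 339 of 410 members (82.7%), and its median was 0.35, a fold of 1.27. The middle 50% of members lay between 0.13 and 0.56. The median over all 15449 tested genes was 0.02. With an adjusted p under 0.05 from edgeR's quasi-likelihood test over all tested genes, 174 members rose (42.4%) and 13 fell (3.17%), where 15.9% of all tested genes rose and 13.6% fell. Among 12901 other protein-coding genes with the same minimum level, 16.6% rose and 14.5% fell. These shares describe the contrast by which the chromosome was chosen. In bulk tumour RNA, fewer cells of a type and less RNA per cell cannot be told apart.

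The change was small and common rather than large and rare. In 287 members (70.0%) the log2 fold change lay between 0 and 0.8, and 132 of the 174 rises were under 0.8. It was over 1 in 39 members and under -1 in 7. In 85 members every AHRKO library was above every WT library (20.7%, beside 6.03% of all tested genes and 6.22% of the other protein-coding genes at that level), and in 2 members every AHRKO library was below (0.488%, beside 7.35% and 7.94%). The longest run of neighbours that all had a log2 fold change above 0 was 22 genes, from Slx4 to Ubn1 (chr16:3979105-5086289).

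**Figure D1:**
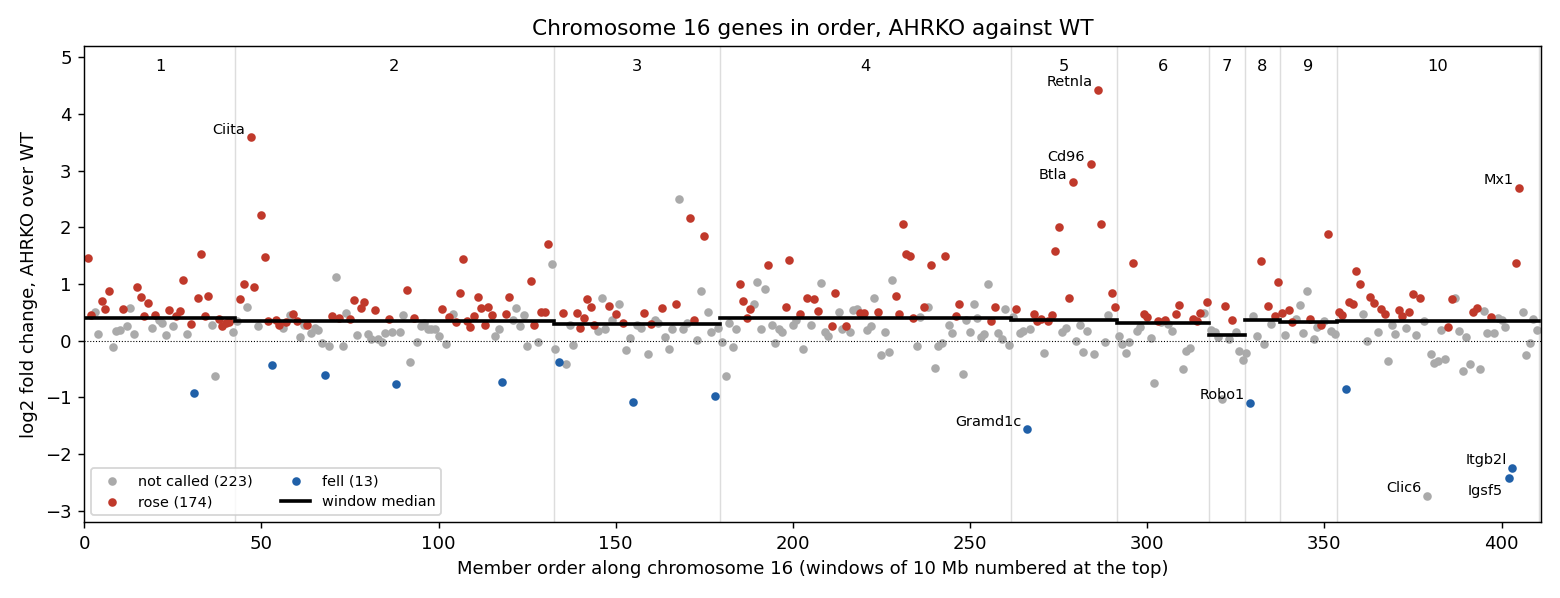
Log2 fold change of AHRKO over WT (vertical axis) for the 410 members in their order along chromosome 16 (horizontal axis), with red for genes that rose, blue for genes that fell, grey for genes not called and black bars for the medians of 10 Mb windows. The 10 window medians lie above 0, from 0.11 to 0.41, while the 13 falls are scattered; the labelled genes Retnla and Clic6 were chosen after their values were seen.

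The change was compared across gene levels. When members were split into 3 groups by mean level over all libraries, the median log2 fold change was 0.39 in the lowest, 0.40 in the middle and 0.27 in the highest. The number that rose was 44, 75 and 55, and the number that fell was 9, 3 and 1. The median standard error was 0.25 in the lowest group and 0.12 in each of the others.

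Chromosome 16 headed a graded series of chromosomes. Chromosomes 15 and 7 came next, with medians of 0.24 and 0.21 and with 31.9% and 27.6% of their members risen. Chromosomes 8 and 12 were at the other end, with medians of -0.30 and -0.24. The spread of log2 fold changes within the chromosome, as the width of the middle 50%, was 0.43 on chromosome 16 and 0.55 on chromosomes 15 and 7.

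The shift was present in each AHRKO library. For each library an offset was taken as the median over the 410 members of the log2 CPM minus the mean log2 CPM of the 6 WT libraries. The offset was -0.03 to 0.05 in the WT libraries, with a mean of 0.0030 ± 0.028 (SD, n = 6), near 0 by construction. It was 0.21, 0.40, 0.21, 0.28, 0.47 and 0.32 in AHRKO replicates 1 to 6, with a mean of 0.31 ± 0.10 (SD, n = 6). The groups did not overlap, and AHRKO replicates 1 and 3 were lowest. Between 62.9% (replicate 1) and 82.9% (replicate 5) of members lay above their WT mean. Over the 389 members outside the lymphocyte, myeloid and interferon-induced lists the AHRKO mean was 0.30 ± 0.11 (SD, n = 6). A median over 410 members can move little when so few are left out.

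The offsets of the AHRKO libraries were set against cell type markers. Scores were the mean log2 CPM of markers off chromosome 16, and 2 relations were computed within the 6 AHRKO libraries, with exact two-sided permutation tests. With the pan-leukocyte score Pearson's r was -0.66 (p = 0.15, adjusted 0.15) and Spearman's rho was -0.37 (p = 0.497, adjusted 0.497, exact permutation test). Without replicates 1 and 5, the farthest from the median score, r was 0.45 (n = 4), so its sign rested on those libraries. With the epithelial score r was 0.76 (p = 0.0694, adjusted 0.139) and rho was 0.66 (p = 0.175, adjusted 0.35, exact permutation test). Without replicates 1 and 2 the epithelial r was 0.85 (n = 4). Neither relation passed the threshold, and the part of cell composition in the offset was not tested.

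**Figure D2:**
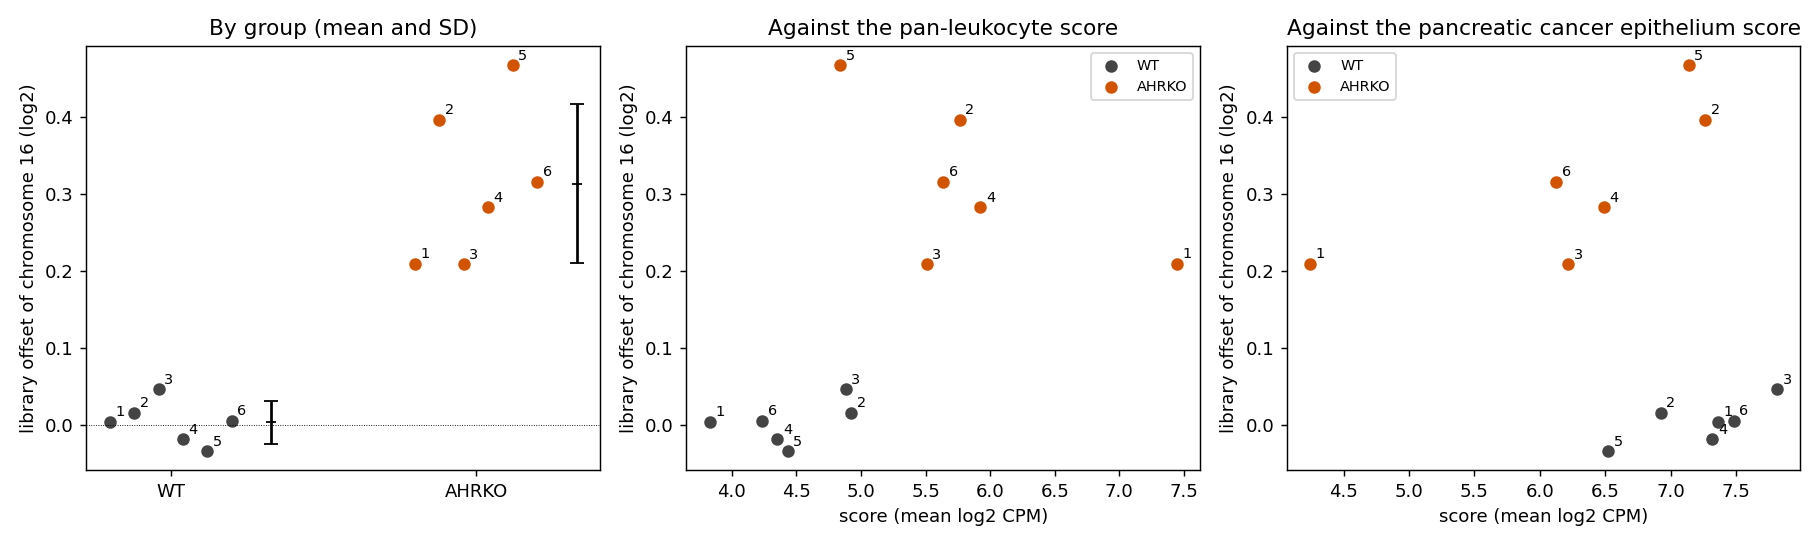
Offset of chromosome 16 in each library (vertical axes, log2), by group with mean and SD on the left, against the pan-leukocyte score in the middle and against the pancreatic cancer epithelium score on the right (mean log2 CPM of the markers). Numbers are replicates; the 6 AHRKO libraries lie between 0.21 and 0.47, all above the highest WT library at 0.05, and AHRKO replicate 1 has the highest leukocyte and the lowest epithelial score.

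Along the chromosome all 10 window medians were above 0. In the windows from 0 to 50 Mb the medians were 0.41 (42 genes), 0.35 (90), 0.30 (47), 0.40 (82) and 0.37 (30). In the windows from 50 to 100 Mb they were 0.31 (26 genes), 0.11 (10), 0.36 (10), 0.34 (16) and 0.35 (57). Without AHRKO replicate 2 the median from 70 to 80 Mb was 0.15, and without WT replicate 3 that from 60 to 70 Mb was 0.16. The share of members that rose ran from 57.1% in the first window to 20% in the window from 60 to 70 Mb. In the windows 0 to 10, 10 to 20, 30 to 40 and 40 to 50 Mb all 6 AHRKO libraries had a window median above the highest WT library.

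The window from 60 to 70 Mb stood lowest, with 3 of 6 AHRKO libraries above the highest WT library. It holds 10 members. Of these 4930453N24Rik rose (log2 fold change 0.62 ± 0.10 SE, adjusted p = 0.00134), as did Cggbp1 (0.38), while Epha3, an ephrin receptor kinase, was at -1.02 (adjusted p = 0.132), Cadm2 at -0.34 and Vgll3 at -0.19. The others were between 0.03 and 0.18. Windows of 5 Mb placed the low stretches more narrowly: medians were -0.058 from 50 to 55 Mb, -0.19 from 65 to 70 Mb and -0.21 from 70 to 75 Mb, each over 3 genes. These stretches hold few genes, and a median over 3 genes is set by its middle gene.

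**Figure D3:**
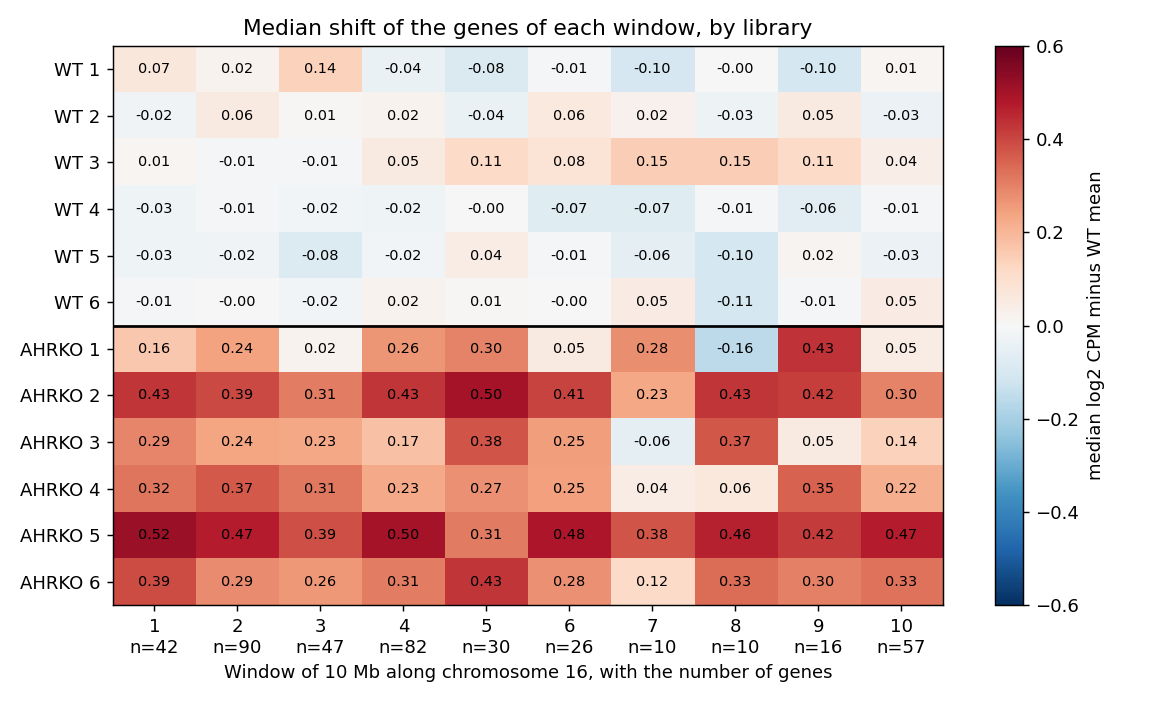
Median of log2 CPM minus the WT mean for the members of each 10 Mb window (columns, numbered along chromosome 16 with their gene number) in each library (rows); red is higher and blue lower. The AHRKO values are above 0 except in AHRKO replicate 3 in window 7, which runs from 60 to 70 Mb (-0.06), and in AHRKO replicate 1 in window 8 (-0.16).

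The genes with the steadiest rises had no single role. Poglut1, which adds glucose to Notch receptors, was at 32.7 to 37.6 CPM in WT (median 35.8) and at 51.6 to 55.7 CPM in AHRKO (median 53.9). The groups were far apart relative to their spread, with a log2 fold change of 0.60 ± 0.06 SE and an adjusted p of 0.000107. Fam43a was at 45.1 to 60.1 CPM in WT (median 48.4) and 92.0 to 123 CPM in AHRKO (median 96.5). Its log2 fold change was 1.01 ± 0.09 SE (adjusted p = 6.17e-05). No WT library of Fam43a reached an AHRKO library. Scarf2, a scavenger receptor family member, was at 111 to 178 CPM in WT (median 128) and 320 to 426 CPM in AHRKO (median 394), a log2 fold change of 1.44 ± 0.14 SE (adjusted p = 8.64e-05).

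Rmi2, a subunit of the complex that dissolves recombination intermediates, was at 2.10 to 2.73 CPM in WT (median 2.58) and 5.29 to 7.87 CPM in AHRKO (median 7.42). Its log2 fold change was 1.48 ± 0.14 SE (adjusted p = 9.09e-05). Nxpe3 was at 5.05 to 7.10 CPM in WT (median 6.21) and 11.6 to 18.5 CPM in AHRKO (median 16.3), a log2 fold change of 1.37 ± 0.15 SE (adjusted p = 0.000148). Both genes kept the groups apart. Cd47, the surface signal that restrains phagocytes, was at 116 to 139 CPM in WT (median 130) and 182 to 202 CPM in AHRKO (median 195). Its log2 fold change was 0.59 ± 0.07 SE (adjusted p = 0.000196), and AHRKO replicate 1 (202 CPM) did not stand apart from the rest.

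Interferon-induced genes had the highest list median. Of 8 members on this list 7 rose (87.5%, beside 42.4% of all members and 15.9% of all tested genes) and 0 fell. Their median log2 fold change was 2.11, beside 0.35 for all members and 0.02 for all tested genes. The list was written with earlier results of these data known. The exception was Nfkbiz, which codes for a nuclear regulator of NF-kappaB, at -0.03 (adjusted p = 0.93). Mx1, an antiviral GTPase (chr16:97447035-97462907), was at 2.86, 1.51, 3.22, 2.71, 1.49 and 2.14 CPM in WT replicates 1 to 6 and at 21.7, 15.9, 11.7, 9.51, 11.7 and 19.8 CPM in AHRKO. The groups did not overlap, and the log2 fold change was 2.70 ± 0.27 SE (adjusted p = 0.000102).

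Ciita, the master activator of MHC class II genes (chr16:10480059-10528418), was at 2.10, 4.26, 4.47, 14.3, 2.83 and 2.24 CPM in WT and at 80.5, 106, 26.5, 13.0, 29.3 and 106 CPM in AHRKO. WT replicate 4 was the highest WT library and overlapped AHRKO replicate 4. The log2 fold change was 3.59 ± 0.64 SE (adjusted p = 0.00212), and 4.23 without WT replicate 4. Ciita overlaps Dexi on the other strand, and whether counting used the strand is not given in the sources used here. Socs1, the inhibitor of JAK kinases whose start region is shown above, was at 9.16 to 15.6 CPM in WT (median 10.5) and at 99.7, 69.5, 41.9, 47.1, 11.1 and 58.8 CPM in AHRKO replicates 1 to 6. AHRKO replicate 5 was within the WT range and the others were above it, with a log2 fold change of 2.22 ± 0.38 SE (adjusted p = 0.00175).

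Parp14, an ADP-ribosyltransferase, was at 20.6 to 50.1 CPM in WT and 42.0 to 219 CPM in AHRKO (median 119), a log2 fold change of 2.07 (adjusted p = 0.00332). WT replicate 4 overlapped the lowest AHRKO libraries. Parp9 and Dtx3l, whose proteins form a complex, both rose (adjusted p = 0.00177 and 0.00231), Dtx3l by 1.54 on the log2 scale. Parp9 was at 17.7 to 38.8 CPM in WT and 40.1 to 99.98 CPM in AHRKO. The pair overlap on opposite strands, so their reads may be shared. Rtp4 rose by 2.16 on the log2 scale (adjusted p = 0.00229) with no overlap of the groups, from 3.52 to 9.26 CPM in WT to 9.84 to 57.6 CPM in AHRKO. AHRKO replicate 1, the library with most leukocyte RNA, was the highest for Mx1, Socs1, Parp14 and Rtp4 but not for Ciita, and the part of leukocyte number in these rises was not tested.

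Receptors for interferons lie together in the last window. Of the 5 members on the list of interferon and interleukin receptors, Ifngr2, Il10rb and Ifnar2 rose and 0 fell, with a list median of 0.56. The risen share was 60%, beside 42.4% of all members and 15.9% of all tested genes. Ifngr2, a chain of the interferon-gamma receptor, was at 77.3 to 97.4 CPM in WT (median 86.6) and 108 to 145 CPM in AHRKO (median 125). It rose by 0.56 ± 0.09 SE on the log2 scale (adjusted p = 0.00117) with no overlap of the groups. Il10rb (0.68, adjusted p = 0.00755) and Ifnar2 (0.77, adjusted p = 0.00948), receptor chains for interleukin-10 and for type I interferons, also kept the groups apart. In both, AHRKO replicate 1 was highest, at 53.9 and 78.5 CPM, where the other AHRKO libraries reached 35.2 and 44.0 CPM. Ifnar1, the partner of Ifnar2, was at 100 to 115 CPM in WT and 101 to 161 CPM in AHRKO (log2 fold change 0.16 ± 0.11 SE, adjusted p = 0.29), and Il1rap was at 0.51 (adjusted p = 0.348).

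Among lymphocyte and myeloid genes 10 of 13 members rose (76.9%, beside 42.4% of all members and 15.9% of all tested genes) and 0 fell. Their median was 1.34, and 0.76 without AHRKO replicate 1. Btla, an inhibitory receptor of lymphocytes, was at 0.168 to 0.645 CPM in WT (median 0.438) and at 9.26, 1.11, 1.99, 1.42, 1.61 and 2.31 CPM in AHRKO replicates 1 to 6. The groups did not overlap, and replicate 1 was far above the rest. The log2 fold change was 2.80 ± 0.57 SE (adjusted p = 0.00415), and 1.99 without AHRKO replicate 1. Cd96, a receptor of T and NK cells, was at 0 to 0.665 CPM in WT (median 0.209), with WT replicate 1 at 0, and at 0.579 to 7.59 CPM in AHRKO (median 1.30). Its log2 fold change was 3.11 ± 0.80 SE (adjusted p = 0.0127), and 2.13 without AHRKO replicate 1.

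The closely related receptors Cd200r4 and Cd200r1 rose by 2.01 and 1.59 on the log2 scale (adjusted p = 0.00299 and 0.0193), and reads may be split between them. Cebpd, a transcription factor of the myeloid lineage and of acute inflammation, rose by 0.69 ± 0.12 SE (adjusted p = 0.00212) from 43.5 to 60.7 CPM in WT to 61.4 to 106 CPM in AHRKO. AHRKO replicate 1, the highest in leukocyte RNA, was its lowest AHRKO library. The remaining genes of this paragraph were chosen after their values were seen. Retnla, a resistin-like protein of alternatively activated macrophages, had the largest log2 fold change among members, at 4.43 ± 0.92 SE (adjusted p = 0.00461). It was at 0.294 to 6.71 CPM in WT and at 82.6, 72.1, 40.9, 200, 2.12 and 17.8 CPM in AHRKO, so replicate 5 lay within the WT range. Tigit, an inhibitory receptor of T and NK cells, was at 35.6 to 59.9 CPM in WT and 44.0 to 84.9 CPM in AHRKO (0.55 ± 0.17 SE, adjusted p = 0.0292). Tigit was lowest in AHRKO replicate 1 among the AHRKO libraries, where Btla and Cd96 were highest.

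Genes of the epithelium varied more. Of 15 members on that list 3 rose (20%, beside 42.4% of all members and 15.9% of all tested genes), 1 fell and 11 were not called. Their median was 0.29. That median was 0.13 without AHRKO replicate 5, 0.19 without AHRKO replicate 6 and 0.11 with the replicate number as a block. Emp2, an epithelial membrane protein, was at 67.9 to 72.5 CPM in WT (median 69.2) and at 64.5, 152, 133, 117, 87.0 and 141 CPM in AHRKO replicates 1 to 6. Only AHRKO replicate 1, the library with the lowest epithelial sum, was not above WT, and the log2 fold change was 0.73 ± 0.17 SE (adjusted p = 0.00874). Bace2, a protease of the beta-secretase family, was at 9.38 to 15.5 CPM in WT and 13.4 to 23.7 CPM in the other AHRKO libraries, but at 85.3 CPM in AHRKO replicate 5. Its log2 fold change was 1.37 ± 0.40 SE (adjusted p = 0.0224), 0.74 without that library, and its call was lost without WT replicate 5 (adjusted p over the 2 settings that lost it 0.0513 to 0.098). Cldn1, a tight junction protein, was near the level minimum and rose by 1.84 ± 0.52 SE (adjusted p = 0.0201).

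Genes of stroma and endothelium had the lowest list median, near 0. Of 22 members 2 rose (Filip1l and Itgb5), 1 fell (Robo1) and 19 were not called, with a median of 0.08. The risen share was 9.09%, beside 42.4% of all members and 15.9% of all tested genes. Without AHRKO replicate 1, the highest in fibroblast and endothelial markers, the median turned to -0.16. It was 0.19 without AHRKO replicate 5, 0.13 without AHRKO replicate 3, and 0.022, 0.16, 0.12, 0.014 and 0.053 without WT replicates 1, 2, 3, 4 and 6, and just below 0 with limma-voom. Filip1l was at 70.9 to 83.5 CPM in WT and 104 to 145 CPM in AHRKO, a log2 fold change of 0.64 ± 0.09 SE (adjusted p = 0.000734) with no overlap. It overlaps Cmss1 on the other strand. Itgb5, an integrin chain, rose by 0.49 ± 0.13 SE (adjusted p = 0.0139) with overlapping groups.

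Lists of mitochondrial, replication, translation, proteasome, transcription factor and signalling genes had medians from 0.20 to 0.49, beside 0.35 for all members. Of 20 mitochondrial genes 15 rose (75%, beside 42.4% of all members and 15.9% of all tested genes) and 0 fell, with a median of 0.49. Atp5j, a subunit of ATP synthase, was at 47.1 to 55.2 CPM in WT and 64.4 to 98.8 CPM in AHRKO (0.55 ± 0.10 SE, adjusted p = 0.00231). Nubp1, an iron-sulphur cluster assembly factor, was at 12.7 to 14.8 CPM in WT (median 13.5) and 21.7 to 34.4 CPM in AHRKO (median 26.3), a log2 fold change of 0.99 ± 0.11 SE (adjusted p = 0.000175). Mrps6, a mitochondrial ribosome protein, rose by 0.82 (adjusted p = 0.00259); it shares its strand and span with Slc5a3. Without a stated strand, reads of Atp5j cannot be told apart from those of Gabpa, nor reads of Nubp1 from those of Tvp23a, in the stretches where they overlap.

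Of 16 DNA replication and repair genes 10 rose (62.5%, beside 42.4% of all members and 15.9% of all tested genes) and 0 fell, with a median of 0.48. Cdc45, a part of the replicative helicase, was at 15.6 to 17.9 CPM in WT (median 17.2) and at 21.3, 40.9, 34.4, 45.9, 38.2 and 31.5 CPM in AHRKO replicates 1 to 6. Cdc45 overlaps Ufd1 on the other strand. All AHRKO libraries were above WT, with replicate 1 lowest, and the log2 fold change was 1.06 ± 0.15 SE (adjusted p = 0.000697). Mis18a, which helps load centromeric histone, rose by 0.68 ± 0.11 SE (adjusted p = 0.00166), also with replicate 1 lowest.

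Of 17 translation and ribosome genes 10 rose (58.8%, beside 42.4% of all members and 15.9% of all tested genes) and 0 fell, with a median of 0.30. Rpl35a, a ribosomal protein, was at 160 to 203 CPM in WT (median 196) and 228 to 531 CPM in AHRKO (median 303), a log2 fold change of 0.84 ± 0.17 SE (adjusted p = 0.00431). Naa50, an acetyltransferase that acts at protein starts, rose by 0.47 ± 0.09 SE (adjusted p = 0.00252). Of 20 proteasome, ubiquitin and chaperone genes 11 rose (55%) and 0 fell, with a median of 0.28. Usp25, a deubiquitinase, was at 57.4 to 69.7 CPM in WT and 75.8 to 111 CPM in AHRKO (0.62 ± 0.09 SE, adjusted p = 0.000905). Senp2, a SUMO protease, rose by 0.49 (adjusted p = 0.00124) and Dnajb11, a chaperone partner in the endoplasmic reticulum, by 0.57 (adjusted p = 0.00243).

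Of 27 genes for transcription factors and chromatin 8 rose and 0 fell, with a median of 0.24. The risen share was 29.6%, beside 42.4% of all members and 15.9% of all tested genes. Glis2, a zinc finger factor, was at 82.6 to 93.8 CPM in WT (median 86.4) and at 137 to 171 CPM in AHRKO replicates 2 to 6, but at 92.9 CPM in replicate 1. Its log2 fold change was 0.77 ± 0.13 SE (adjusted p = 0.00156). Tfap4, a factor that binds E-boxes, was also lowest in AHRKO replicate 1, at 10.9 CPM, with 22.5 to 37.1 CPM in the others. Only 5 AHRKO libraries were above its WT median, and replicate 1 was not. Tfap4 rose by 0.96 ± 0.23 SE (adjusted p = 0.00916). Of 21 signalling genes 5 rose (23.8%), 2 fell and 14 were not called, with a median of 0.20. Ap2m1, a clathrin adaptor subunit, rose by 0.50 ± 0.09 SE (adjusted p = 0.00193). Map3k7cl rose by 1.88 ± 0.55 SE (adjusted p = 0.0218) and by 1.17 without AHRKO replicate 1, which was at 8.31 CPM where the others were at 1.09 to 2.23 CPM.

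The Down syndrome and DiGeorge lists, defined by position, had medians close to the 0.35 of all members. Of 48 Down syndrome critical and neighbouring genes 20 rose (41.7%, beside 42.4% of all members) and 0 fell, with a median of 0.34. That list does not take every gene of its stretch, and Hunk, Igsf5 and Itgb2l, which fell, are not on it. Dyrk1a, a kinase studied for its dosage in Down syndrome, was at 51.8 to 62.7 CPM in WT (median 54.9) and 71.5 to 104 CPM in AHRKO (median 81.5), a log2 fold change of 0.57 ± 0.10 SE (adjusted p = 0.00184) with no overlap. Vps26c, an endosomal recycling subunit, rose by 0.50 ± 0.07 SE (adjusted p = 0.000741). Of 29 DiGeorge region genes 17 rose (58.6%) and 1 fell, with a median of 0.35; the difference between these shares was not tested. Cdc45, Scarf2 and Hira, described with other roles, are among the risen genes, and Arvcf is the one that fell.

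**Figure D4:**
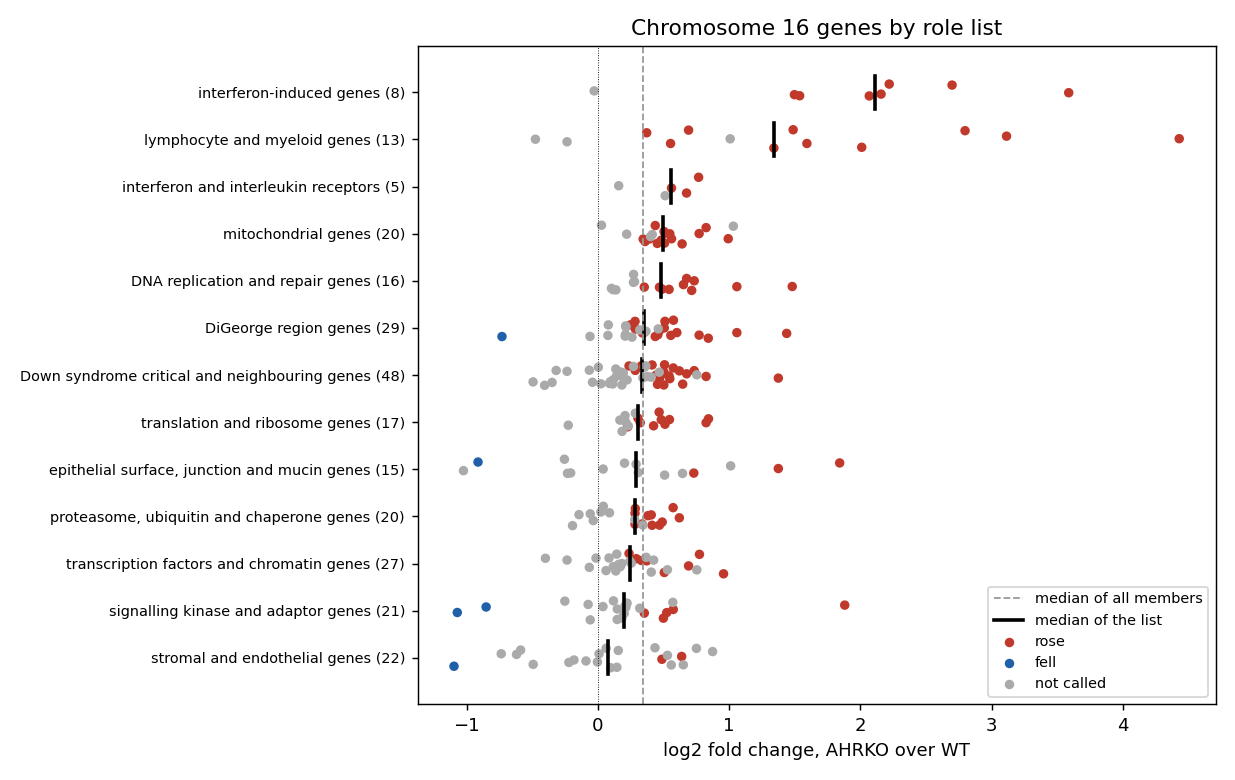
Log2 fold change of AHRKO over WT (horizontal axis) of the members in each role list (rows, with the number of members), red for genes that rose, blue for genes that fell and grey for genes not called; points are spread vertically only for legibility. Black bars are list medians, which run from 0.08 for stromal and endothelial genes to 2.11 for interferon-induced genes, and the dashed line is the median of all members at 0.35.

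Members outside the immune lists were also counted alone. Beside their counts, 42.4% of all members and 15.9% of all tested genes rose. The 389 members outside the lymphocyte, myeloid and interferon-induced lists had a median log2 fold change of 0.32, with 157 rises and 13 falls. The 195 members in no list had a median of 0.35, with 80 rises and 8 falls. Genes outside a list can also follow cell composition, whose part in the rise was not tested.

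Genes that went against the general rise were few. A log2 fold change of 0 or less was found in 71 members (17.3%, beside 47.8% of all tested genes), of which 58 were not called and 13 fell. Igsf5 and Itgb2l, which lie next to each other, fell most. Igsf5, a junctional adhesion molecule of the immunoglobulin family (chr16:96361668-96422121, plus strand), was at 14.8, 10.5, 11.1, 17.1, 11.0 and 14.4 CPM in WT replicates 1 to 6 and at 0.119, 4.50, 1.24, 2.85, 3.47 and 2.37 CPM in AHRKO. The groups did not overlap, and AHRKO replicate 1 was lowest. The log2 fold change was -2.43 ± 0.50 SE (adjusted p = 0.00432), 5.38-fold lower.

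Itgb2l, an integrin beta chain relative (chr16:96422288-96443619, minus strand), was at 1.93, 1.71, 2.33, 3.68, 2.13 and 3.05 CPM in WT and at 0.356, 1.02, 0.206, 0.399, 0.45 and 0.636 CPM in AHRKO. The groups again did not overlap, and the log2 fold change was -2.23 ± 0.34 SE (adjusted p = 0.000928), 4.71-fold lower. These were the 2 members with every AHRKO library below every WT library. Their gene bodies point towards each other and do not overlap in the annotation, but read-through between them cannot be told apart without strand.

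Gramd1c, a sterol transfer protein of the endoplasmic reticulum, was at 2.38 to 4.61 CPM in WT (median 3.84) and at 3.03, 0.484, 0.412, 0.741, 1.48 and 1.33 CPM in AHRKO replicates 1 to 6. Only replicate 1 overlapped WT, and the log2 fold change was -1.56 ± 0.43 SE (adjusted p = 0.0171). Mb21d2, a relative of the DNA sensor cGAS, was at 14.2 to 16.9 CPM in WT and at 16.2, 6.05, 6.94, 8.60, 4.50 and 6.65 CPM in AHRKO. Here too replicate 1 alone was at the WT level, and the log2 fold change was -0.97 ± 0.25 SE (adjusted p = 0.0137). Arvcf, a catenin that binds cadherins, was at 11.9 to 19.7 CPM in WT (median 17.1) and 6.59 to 12.2 CPM in AHRKO (median 10.1), with a narrow overlap and a log2 fold change of -0.73 ± 0.20 SE (adjusted p = 0.0156). Since the counting strand is not stated, reads of Arvcf may include some from the other strand.

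Robo1, a receptor for Slit guidance proteins, was at 31.8 to 57.7 CPM in WT (median 40.5) and 6.84 to 35.4 CPM in AHRKO, a log2 fold change of -1.10 ± 0.32 SE (adjusted p = 0.0216). Ppl, the desmosomal protein periplakin, was at 48.2 to 83.5 CPM in WT (median 62.4) and 15.6 to 61.8 CPM in AHRKO (median 31.2), with AHRKO replicate 1 lowest (-0.91 ± 0.30 SE, adjusted p = 0.0347). The kinase genes Map3k13 (-1.07, adjusted p = 0.0422) and Hunk (-0.85, adjusted p = 0.0314) were low in all libraries, at no more than 3.42 and 1.79 CPM. The remaining falls were Ypel1 (-0.76, adjusted p = 0.0237), Mpv17l (-0.61, adjusted p = 0.0462), Snn (-0.42, adjusted p = 0.0219) and Yeats2 (-0.38, adjusted p = 0.0279), the last a subunit of a histone acetyltransferase complex. Ypel1 and Snn overlap genes on the other strand.

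Of the 13 falls, 8 lost their call when some single library was left out, and Igsf5, Itgb2l, Gramd1c, Mb21d2 and Arvcf did not under any alternative that gave them a value; Itgb2l had none under the stricter filter. Robo1 lost it without WT replicate 5, Ypel1 without WT replicate 4 or 6, and Snn without WT replicate 5 or 6. Yeats2 lost it without AHRKO replicate 3 or 4 or WT replicate 1, 4 or 5, and Ppl without AHRKO replicate 2, 3 or 4 or WT replicate 1, 3, 4 or 6. Hunk lost it without AHRKO replicate 2, 4 or 6 or WT replicate 3, 4 or 6. Map3k13 lost it without AHRKO replicate 1, 2, 3, 4 or 6 or WT replicate 1, 4, 5 or 6, and Mpv17l without AHRKO replicate 2, 3, 4, 5 or 6 or WT replicate 1, 4, 5 or 6. Over all alternatives that lost a call the adjusted p was 0.0501 to 0.104. Without AHRKO replicate 1, which stood apart, 206 members rose and 21 fell. The number of falls was 7 without WT replicate 4 or 6 and 8 without AHRKO replicate 4 or WT replicate 5.

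**Figure D5:**
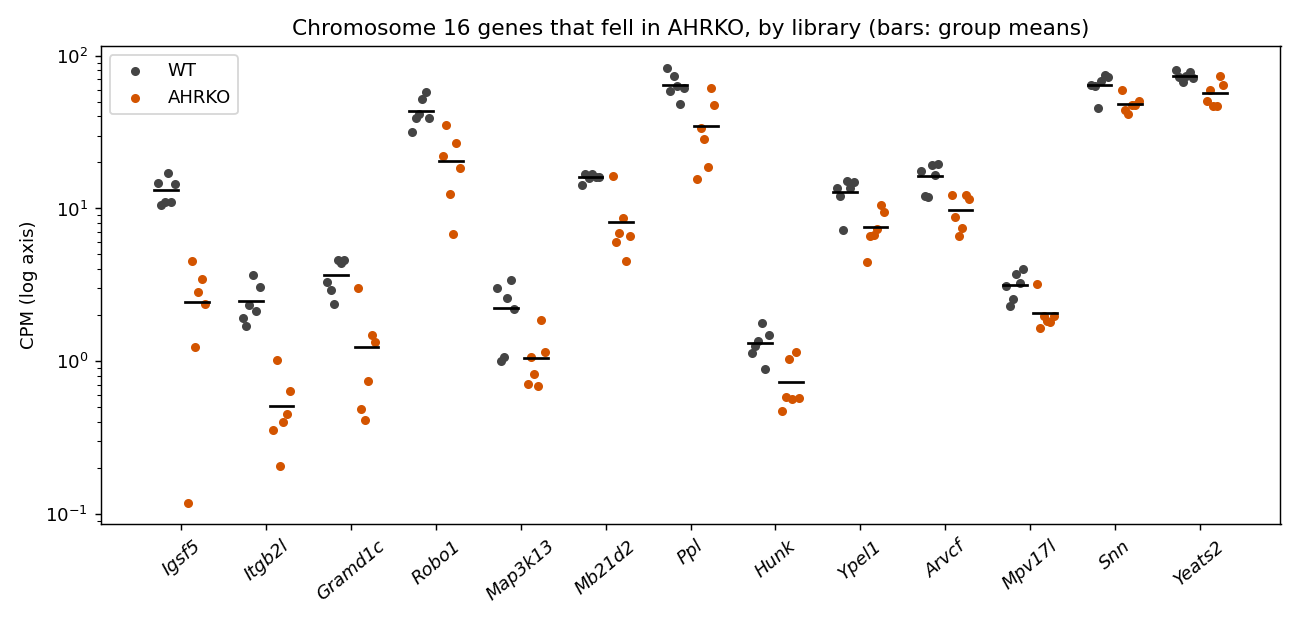
CPM on a log axis (vertical) in each library for the 13 members that fell, grey for WT and orange for AHRKO, with bars at the group means, ordered from the largest fall on the left. Igsf5 and Itgb2l are the genes in which every AHRKO library lies below every WT library; in Gramd1c and Mb21d2 AHRKO replicate 1 lies among the WT libraries.

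Clic6, a chloride channel family member (chr16:92485736-92541243), had the lowest log2 fold change of all members and was not called; it was chosen after its values were seen. It was at 78.3, 46.7, 21.0, 52.8, 63.4 and 54.7 CPM in WT and at 0.178, 1.60, 1.51, 1.42, 42.1 and 1.10 CPM in AHRKO replicates 1 to 6. AHRKO replicate 5 was within the WT range and the other AHRKO libraries were all below it. The log2 fold change was -2.73 ± 1.00 SE (adjusted p = 0.0557).

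A second way to read escape is against the chromosome's own shift. Each library was scaled so that its median offset over the members was 0, a setting chosen after seeing the data. With an adjusted p under 0.05, 61 members were then above the chromosome's shift and 44 below it. No share of all tested genes in that scaling is given beside these counts, so they are a description only. The 44 were the 13 falls and 31 members that were not called in the scaling over all genes. Among the latter was Clic6, described above, with a log2 fold change of -3.17 in the scaling to the chromosome. Ttc3, an E3 ubiquitin ligase, and Runx1, a transcription factor of blood formation, were also among them. In the scaling over all genes they were at -0.41 (adjusted p = 0.0576) and -0.24 (adjusted p = 0.0606).

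Neighbouring genes were compared by the difference between their log2 fold changes. The chromosome has 21 pairs of members that start head to head within 1000 bases, and the median absolute difference between the log2 fold changes of a pair was 0.29. For the 388 other neighbouring members it was 0.38. Median standard errors of single genes were 0.12 to 0.25 across the level groups, and their part in these differences was not tested. Of all members 42.4% rose, but that is a share of single genes and not a like measure for pairs. Both genes rose in 4 of the 21 pairs. Among these pairs were Mrpl40, a mitochondrial ribosome protein, and Hira, a histone chaperone, each at 0.51. Tango2 and Arvcf, whose start region is shown above, differed by 0.94, with Tango2 at 0.21 (adjusted p = 0.345) and Arvcf at -0.73. Glyr1 and Ubn1 were at 0.12 (adjusted p = 0.334) and 0.29 (adjusted p = 0.0155). Pairs are not independent of each other where they share a stretch of the chromosome, and they were not tested.

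Start regions of the members were searched for 4 motifs on both strands, from 250 bases before to 50 bases after the start, for the 334 of 410 members found in the promoter table. GCGTG, the letters at the heart of AHR binding sites, was in 58.7% of the promoters of 150 members that rose, 5 of 10 that fell and 54.6% of 174 that were not called. It was in 36.5% of all 20592 promoters and in 49.8% of those of tested genes. The interferon element (GAAA, any 2 bases, GAAA) was in 3.33% of the promoters of risen members (5 of 150: Alg1, Socs1, Klhl22, Zdhhc8 and Tomm70a), in 0 of 10 that fell, in 1.15% of members not called, in 3.12% of tested genes and in 3.39% of all promoters. Socs1 is the one of these on the interferon-induced list. TTCNNNGAA, the site form of STAT proteins, was in 6.67% of risen members, 7.47% of members not called, 6.93% of tested genes and 8.06% of all promoters. CACGTG was in 10.7%, 10.3%, 9.78% and 7.66% of the same sets. CACGTG holds none of the other motifs. A match is a description of the letters and does not show that a factor binds.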

How the data were processed

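RNA from 12 tumour samples was measured by poly-A selected RNA sequencing, per the labels' protocols. Per the submitters' processing notes, the authors used HISAT2, SAMtools, HTSeq and DESeq2 with mm10; the sources used here give no versions, annotation or strand setting. The authors deposited raw read counts for 43432 genes, and every column belonged to one of the 12 samples. The labels' growth texts describe cultured cells with test compounds, but no sample names one.

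GENCODE M21 gave the symbol, gene type and mm10 position of each identifier (42462 genes matched). Members were chosen by mean CPM on library totals, while printed CPM use totals scaled by trimmed mean of M values (TMM), and log2 CPM a prior count of 2. Genes were kept by edgeR's filterByExpr, which left 15449. AHRKO was compared with WT over all 12 libraries by edgeR's quasi-likelihood test (edgeR 4.0.16, R 4.3.3), two-sided; p-values were adjusted by Benjamini-Hochberg across the 15449 genes and called under 0.05. Every adjusted p of a gene in the text comes from that test. On simulated counts of 15307 genes it recovered 55.7% of 88 genes changed by a log2 fold of 1 and 91.3% of 103 changed by 2, with 8 false calls. Libraries of a group differed by at least 13.9 in chi-squared per degree of freedom, so none was counted as a duplicate. Reads carry no molecular identifiers, so depth covers counting error only.

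Named genes were the 12 largest rises and the 12 largest falls whose 6 AHRKO libraries all lay on that side of the median WT library, the 5 rises and 5 falls of smallest p, the rise and fall with the smallest p in each window, and up to 3 from each role list; falls were all named. Predicted genes with only a model number were passed over, and 1 gene that the rule takes is not reported here. Other names were added after their values were seen, as exceptions, edge cases or neighbours. The chromosome, its members and the gene lists were chosen with earlier results of these data known. Alternatives were DESeq2 1.42.0, limma-voom (limma 3.58.1), other size factors, filters and gene minimums, 5 Mb windows, the replicate number as a block, and fits that left out 1 library.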

Additional observations from a re-analysis of the deposited data

Results flagged for a closer look

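Among 120 sets of 6 values checked (the log2 CPM of named genes and the library offsets, by group), 17 had a highest or lowest library whose gap to the nearest other, as a share of the whole range, was above Dixon's critical value for 6 samples. Chance gives such a gap in about 1 in 20 sets.

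AHRKO replicate 1 was the library apart in 7 of them. It was higher than the other AHRKO libraries for Cd96 (7.59 CPM, others 0.579 to 1.55), Btla (9.26 CPM, others 1.11 to 2.31), Map3k7cl (8.31 CPM, others 1.09 to 2.23), Il10rb (53.9 CPM, others 29.9 to 35.2), Ifnar2 (78.5 CPM, others 33.3 to 44.0) and Mpv17l (3.20 CPM, others 1.65 to 1.99). It was lower for Glis2 (92.9 CPM, others 137 to 171). This library also had the highest pan-leukocyte score, 7.45, and the lowest epithelial score, 4.24 (mean log2 CPM), and their part in these values was not tested.

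AHRKO replicate 5 was apart for Fam43a (123 CPM, others 92.0 to 102) and Bace2 (85.3 CPM, others 13.4 to 23.7), and AHRKO replicate 4 for Nxpe3 (11.6 CPM, others 15.7 to 18.5).

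Among WT libraries, replicate 4 was high for Parp14 (50.1 CPM, others 20.6 to 26.8). Replicate 5 was low for Cldn1 (0.149 CPM, others 0.485 to 0.63) and Rpl35a (159.7 CPM, others 191.7 to 203). Replicate 3 was low for Ypel1 (7.22 CPM, others 12.1 to 15.1) and Snn (45.3 CPM, others 63.2 to 74.5), and replicate 1 for Rmi2 (2.10 CPM, others 2.51 to 2.73) and Mb21d2 (14.2 CPM, others 15.9 to 16.9).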

How the results depend on the processing

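Under every alternative run other than scaling to the chromosome, the median log2 fold change of the members was between 0.30 and 0.38. The mean offset of the AHRKO libraries was between 0.30 and 0.32 under its alternatives. The number of members that rose was 205 with DESeq2, 216 with limma-voom and 133 with no filter. Leaving out a library gave 143 to 206 rises, 7 to 21 falls and medians of 0.30 to 0.35. With a minimum mean CPM of 5, 8 members fell, since fewer low genes were members. Scaling each library to the chromosome's own median left 61 rises and 44 falls by its construction, with no share of all tested genes given beside them.

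With the replicate number as a block 97 members rose and 9 fell, with a median of 0.31. The deviations of same-numbered WT and AHRKO libraries from their group means had correlations of -0.47 to 0.03. No WT library was matched best by the AHRKO library of its own number. With 6 pairs these values cannot decide whether same-numbered samples shared a batch, and the labels do not say.

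Among 250 recomputed window medians 3, all from 5 Mb windows, moved by more than the spread between libraries: -0.058 for 50 to 55 Mb, -0.19 for 65 to 70 Mb and -0.21 for 70 to 75 Mb, each over 3 genes. On library totals the relation of the offset to the epithelial score passed the threshold by Pearson's r (0.84, adjusted p = 0.0306, exact permutation test, n = 6). Spearman's rho did not pass it (0.77, adjusted p = 0.206, exact permutation test). Without AHRKO replicates 1 and 2 that r was 0.74 (n = 4). With a minimum mean CPM of 5 the adjusted p of r was 0.0556, and the cause was not tested. Of 59 named genes 44 kept their call under each of the 20 alternatives, other than scaling to the chromosome, that gave them a value, 15 lost it under at least 1, and 0 reversed. The stricter filter left out 7 of the 59, among them Itgb2l, Btla and Cldn1 of the 44. Rises that lost it were Bace2, Cd200r1, Cd96, Itgb5, Litaf, Map3k7cl and Tfap4, all under the block and Bace2 also without WT replicate 5. The lowest of the 3 level groups had the largest median standard error, 0.25; counting error and spread between tumours were not separated.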
